A study of Mus musculus with 6 samples.

Results

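The enzymes and protein complexes that write, erase and read marks on histones and DNA, or that move nucleosomes, were examined in splenic B cells with and without the histone acetyltransferase Crebbp. The set comprised 51 genes chosen by function and matched by gene symbol on an Affymetrix mouse array. Of these, 50 were measured, out of 18193 genes in all, and Ncor1 was not analysed here because no probe set carried its symbol alone. They were 10 acetyltransferases, 16 deacetylases, 2 bromodomain readers, 17 enzymes of histone or DNA methylation and 5 remodellers. Where a gene had several probe sets, the one with the highest mean intensity was taken.

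The Crebbp-deleted group comprised 3 mice labelled CBPΔ/Δ x EµBcl2, and the Crebbp-floxed group comprised 3 mice labelled CBPF/F x EµBcl2, whose Crebbp gene was flanked by recombination sites. Both groups thus carried the EµBcl2 transgene, in which the Eµ enhancer drives the survival gene Bcl2 in B cells, so no sample lacked it. The age of the mice and the recombinase that deleted Crebbp are not given in the sources used here. Spleen cells had been frozen alive, thawed and depleted of cells bearing CD43, and each mouse gave 1 array. The design sets Bcl2-transgenic B cells without Crebbp against those that keep it. Levels are log2 intensities, differences are deleted minus floxed on that scale, and intensities of different probe sets are not compared as transcript levels.

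Crebbp transfers acetyl groups to histone tails at enhancers and promoters, together with its paralog Ep300, and deacetylases held in corepressor complexes remove them. Bromodomain proteins bind acetylated lysines, while the KMT2 and Polycomb enzymes place methyl marks that accompany active and silent genes. SWI/SNF remodellers use ATP to slide or evict nucleosomes, and DNMT and TET enzymes add and oxidise methyl groups on cytosine. Genes of several of these classes, CREBBP among them, are recurrently mutated in human B cell lymphomas.

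Crebbp itself had 9.59, 9.41 and 9.35 in the deleted samples, against 10.04, 9.87 and 9.95 in the floxed samples. The difference at this probe set was −0.50 ± 0.10 (SE, n = 3 each, limma adjusted p = 0.078), and all 4 Crebbp probe sets had deleted samples below floxed samples. Another of them passed, at −0.79 (limma adjusted p = 0.033 over all probe sets), and the mean of the Crebbp probe sets fell by 0.70 on the log2 scale (limma adjusted p = 0.039). The sources used here do not say which of them cover the exons that were removed. The main Bcl2 probe set had 7.53, 7.17 and 7.13 in deleted samples, against 7.93, 8.06 and 8.07 in floxed samples (−0.74, limma adjusted p = 0.055). Negative differences were seen at 4 of the 5 Bcl2 probe sets, and 1 of these passed (−0.85, limma adjusted p = 0.031 over all probe sets). The fifth stood 0.43 higher in the deleted samples, without overlap (limma adjusted p = 0.359 over all probe sets). The sources used here do not say whether they also read the transgene. Of 12 B cell markers 10 were measured, with mean levels from 6.92 to 13.64, and 2 of the 10 passed the test, with 8 of the 10 lower in the deleted samples. All 12 plasma cell markers stood higher in the deleted samples, with 1 past the test. Of the 13 macrophage markers measured, 12 stood higher and 0 passed. Over all genes 0.781% passed. At an unadjusted limma p under 0.05 there were 5 of 10 B cell, 10 of 12 plasma cell and 8 of 13 macrophage markers, beside 14.8% of all genes. The summed log2 levels of the plasma cell markers ran from 98.6 to 113 in deleted samples and from 88.5 to 90.1 in floxed samples. The 13 measured macrophage markers summed to between 81.7 and 95.7 in deleted samples and between 64.6 and 83.5 in floxed samples, and Cd14, Itgam and Fcgr1 averaged below the median of all probe sets, 4.29. The part of such cells in the results below was not tested. In RNA from a mixed sample, fewer cells of a type and less RNA per cell cannot be told apart. Xist and Y-linked genes marked deleted samples 1 and 3 and floxed sample 1 as male and the other 3 as female.

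No chromatin gene passed the test. Of the 50 measured, limma called 0 at a Benjamini-Hochberg adjusted p under 0.05 over all genes, where 142 of the 18193 genes, 0.781%, were called. The smallest adjusted p was 0.095, for the acetyltransferase Kat5, and over 19 refits with other settings or without a sample its limma adjusted p ran from 0.057 to 0.285. At an unadjusted p under 0.05 there were 6 of 50 genes, 12%, beside 14.8% of all genes. These were Kat5, Hdac1, Hdac5 and Kdm2b with negative differences and Hdac9 and Kmt2a with positive ones. The 3 deleted samples lay entirely below the 3 floxed samples in 9 of the 50 genes and entirely above them in 4, together 26%, beside 21.2% of all genes. Over all genes 10.0% were separated downward and 11.2% upward. The median difference of the 50 was −0.036 against 0.013 over all genes, and the median size of the difference, sign ignored, was 0.122 against 0.120.

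**Figure D1:**
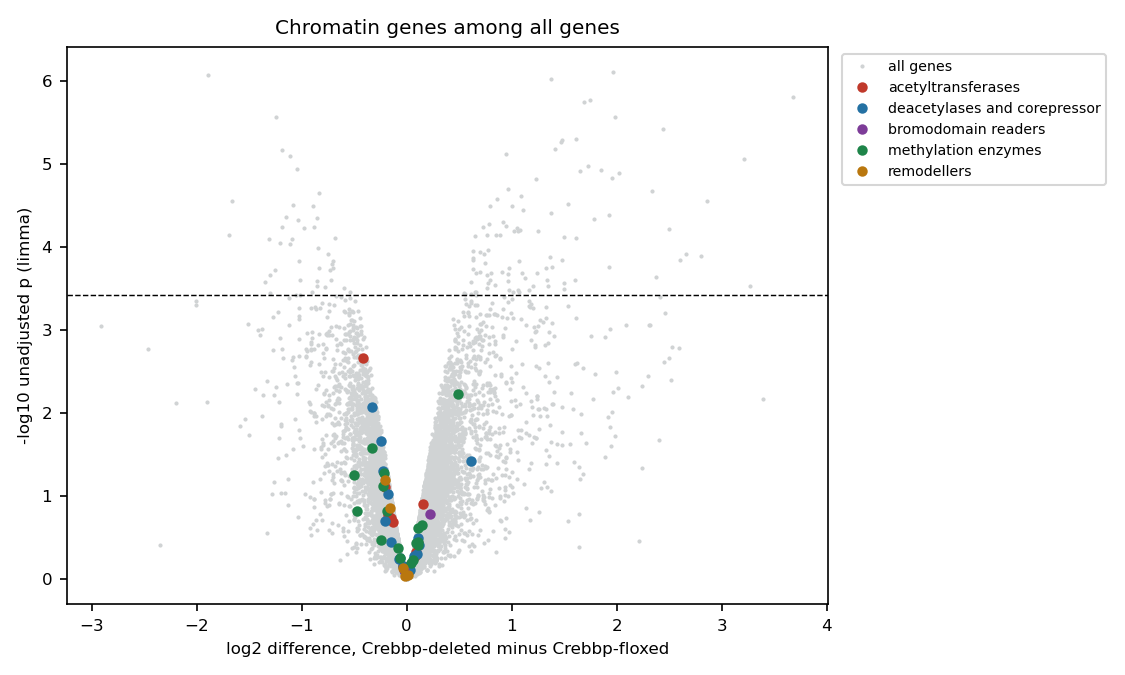
Each point is 1 gene, placed by its log2 difference (deleted minus floxed, horizontal axis) and by −log10 of its unadjusted limma p (vertical axis). Grey points are all 18193 genes, coloured points are the 50 chromatin genes by class, and the dashed line is the smallest −log10 p among genes with an adjusted p under 0.05. All coloured points lie below that line.

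The intervals give a range for the size of each gene's difference and are not the limit for a call. For 43 of the 50 genes the 95% interval of the difference lay within a 1.5-fold change in either direction, which is 0.58 log2 units. Over all genes this held for 78.1%. The intervals are not adjusted for the number of genes and cover only the probe set taken for each gene. A dim Smarcb1 probe set that was not taken differed by 0.88. The 7 genes whose interval reached further were Kat5, Hdac9, Kmt2a, Kdm2b, Ezh2, Kdm6b and Tet2. The median standard error was 0.104 for the 50 genes and 0.118 for all genes. Leaving out any 1 sample gave 0 calls among the 50 in each of the 6 fits. Over all genes these fits called 16, 45 and 62 without deleted samples 1, 2 and 3, and 0, 140 and 226 without floxed samples 1, 2 and 3, so the counts of 0 say little about the 50 in themselves. The fit with sex as a term gave 0 among the 50 as well, where 0.203% of all genes were called. In that fit 5 of the 50 had an unadjusted p under 0.05, beside 14.0% of all genes. An ordinary linear model without limma's shared variance called 0 of all genes and so 0 of the 50. It put 7 of the 50, 14%, at an unadjusted p under 0.05, beside 2299 of all genes, 12.6%.

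**Figure D2:**
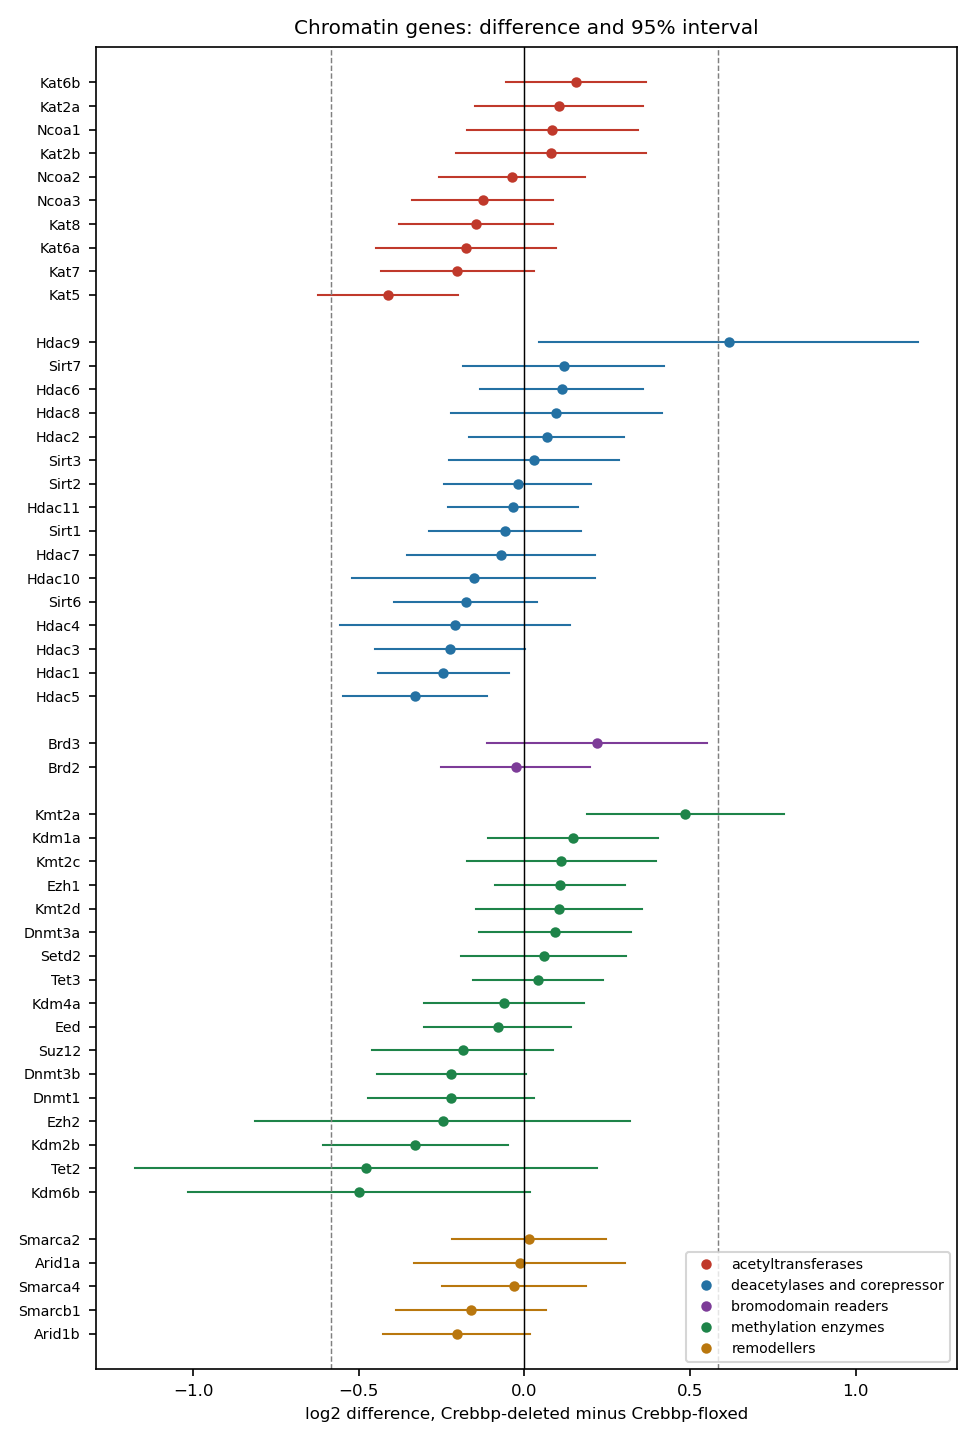
Points are log2 differences (deleted minus floxed, horizontal axis) of the 50 genes, ordered within each class, and bars are 95% intervals from limma. Dashed lines mark a 1.5-fold change either way. The widest interval is that of Tet2, from −1.18 to 0.22.

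Among the 10 acetyltransferases the median difference was −0.08, with 4 positive and 6 negative values. Kat5, also called Tip60, is the catalytic subunit of the NuA4 complex and takes part in the response to DNA breaks. It had levels of 7.45, 7.62 and 7.59 in the deleted samples, against 8.01, 7.91 and 7.98 in the floxed samples. The groups did not overlap, and the deleted mean was 75.2% of the floxed mean, a difference of −0.41 ± 0.09 (SE, limma adjusted p = 0.095). A second Kat5 probe set gave −0.30, again with all deleted samples below all floxed samples. The difference in Kat5 was −0.48 within males and −0.33 within females, each resting on a lone sample of 1 genotype. Kat5 is shown with its promoter because it had the smallest p of the set. The window runs from 250 bases before to 50 after the start of transcription in RefSeq, at chr19:5610045-5610344 of GRCm38.p6 on the minus strand. Capitals mark TGACG or its reverse complement, the core of the cAMP response element to which Creb, the partner of Crebbp, binds.
Kat5: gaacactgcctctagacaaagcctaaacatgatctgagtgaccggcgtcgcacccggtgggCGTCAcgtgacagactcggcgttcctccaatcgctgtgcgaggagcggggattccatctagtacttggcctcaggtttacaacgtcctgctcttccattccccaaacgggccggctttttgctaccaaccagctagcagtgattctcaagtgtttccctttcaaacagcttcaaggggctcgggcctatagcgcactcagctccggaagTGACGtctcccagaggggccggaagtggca

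The other acetyltransferases differed by less. Kat7, the catalytic subunit of HBO1 complexes, had 8.05, 7.89 and 7.96 in deleted samples, against 8.26, 8.04 and 8.21 in floxed samples, with a difference of −0.20 (adjusted p = 0.395). Kat6b, a MYST family enzyme, had 7.22, 7.26 and 7.10 in deleted samples and 7.09, 7.07 and 6.97 in floxed samples. Its groups did not overlap, but the difference of 0.16 did not pass (adjusted p = 0.476). The SAGA subunit gene Kat2a and its paralog Kat2b differed by 0.10 and 0.08, and the nuclear receptor coactivators Ncoa1, Ncoa2 and Ncoa3 by 0.08, −0.04 and −0.13. Kat8, which acetylates histone H4, differed by −0.15, and the MYST enzyme Kat6a by −0.18. Ncoa2 had the brightest probe set of the class, with a mean of 9.12, and its 4 probe sets were divided, with 2 higher and 2 lower. Outside the set, Ep300 had 9.26, 9.26 and 9.31 in deleted samples, against 8.80, 9.31 and 8.96 in floxed samples. Floxed sample 2 lay among the deleted samples, and the difference in Ep300 was 0.26 ± 0.14 (SE, adjusted p = 0.433). It was 0.40 without floxed sample 2 and 0.15 without floxed sample 1, with a limma adjusted p of 0.141 or more.

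The deacetylases had a median difference of −0.05, with 6 positive and 10 negative values. Hdac5, a class IIa enzyme that shuttles between nucleus and cytoplasm, had 6.81, 6.81 and 6.91 in the deleted samples, against 7.19, 7.06 and 7.26 in the floxed samples. The groups did not overlap, and the difference was −0.33 ± 0.09 (SE, limma adjusted p = 0.165). Hdac1, a class I enzyme of the Sin3, NuRD and CoREST complexes, had 9.62, 9.57 and 9.50 in deleted samples, against 9.78, 9.79 and 9.86 in floxed samples. This amounted to 84.4% of the floxed level, a difference of −0.24 ± 0.08 (SE, limma adjusted p = 0.240). Hdac3, the enzyme of the NCoR and SMRT corepressors, had 7.55, 7.52 and 7.51 in deleted samples, against 7.60, 7.86 and 7.79 in floxed samples. Its deleted samples varied little, with an SD of 0.021, and its difference was −0.23 (adjusted p = 0.340).

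Hdac9, another class IIa enzyme, had the largest positive difference of the 50 genes. Its levels were 7.54, 7.40 and 7.69 in the deleted samples, against 6.32, 7.27 and 7.19 in the floxed samples. Floxed sample 1 stood well below the other 5, and the difference of 0.62 ± 0.24 (SE, limma adjusted p = 0.300) was 0.31 without that sample. Within males, where floxed sample 1 is the only floxed mouse, the difference was 1.29, and within females it was 0.17. A second Hdac9 probe set, with a mean of 4.29, close to the median of all probe sets, also stood higher, by 0.37, with overlapping groups. Hdac2, the close paralog of Hdac1, differed by 0.07, and Hdac4 by −0.21, with its 2 brighter probe sets in opposite directions. Sirt1, the NAD-dependent deacetylase of nuclear proteins, differed by −0.06, the tubulin deacetylases Hdac6 and Sirt2 by 0.11 and −0.02, and the mitochondrial Sirt3 by 0.03. Sirt6, a nuclear sirtuin linked to DNA repair, had deleted samples from 5.30 to 5.50, all below the floxed samples at 5.52 to 5.63. The nucleolar Sirt7 differed by 0.12, and Hdac7, Hdac10, Hdac11 and Hdac8 by −0.07, −0.15, −0.03 and 0.10. Hdac8, with a mean of 4.02, was the only measured gene of the 50 below the median of all probe sets. The Hdac5 promoter is shown because the p of Hdac5 was among the smallest of the set. It lies at chr11:102230123-102230422 of GRCm38.p6 on the minus strand, with TGACG cores in capitals.
Hdac5: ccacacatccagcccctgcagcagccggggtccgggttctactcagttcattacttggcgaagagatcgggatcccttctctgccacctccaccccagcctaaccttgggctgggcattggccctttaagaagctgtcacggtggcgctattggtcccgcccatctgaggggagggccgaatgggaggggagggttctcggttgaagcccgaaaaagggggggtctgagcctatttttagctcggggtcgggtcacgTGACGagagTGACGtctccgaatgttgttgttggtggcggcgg

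The BET bromodomain readers Brd2 and Brd3, which bind acetylated histone tails, did not pass either. Brd2 had 11.03, 10.78 and 10.89 in deleted samples, against 10.96, 10.89 and 10.94 in floxed samples, a difference of −0.03 with a 95% interval from −0.25 to 0.20. Its other probe set differed by 0.06. Brd3 had 7.29, 7.27 and 7.36 in deleted samples, against 6.98, 7.40 and 6.89 in floxed samples. Only floxed sample 2 reached the deleted samples, and the difference was 0.22 (limma adjusted p = 0.530). It was 0.37 without floxed sample 2 and 0.12 without floxed sample 3, with an adjusted p of 0.151 or more. All 4 Brd3 probe sets stood higher in the deleted group, by 0.19 to 0.44, and at 1 of them the groups did not overlap.

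**Figure D3:**
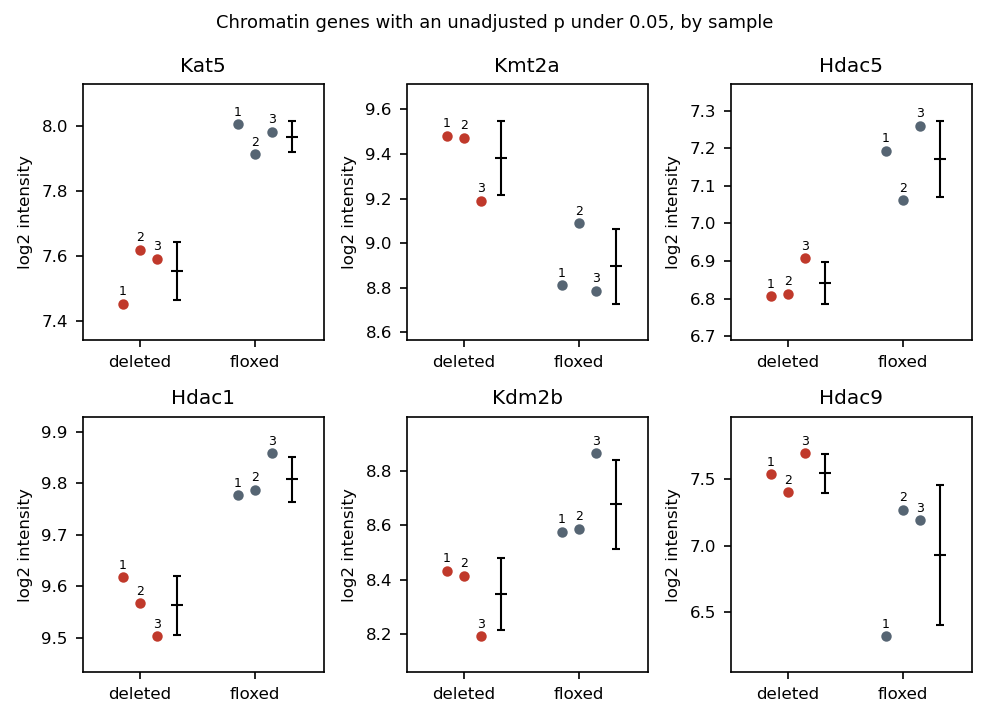
Log2 intensity (vertical axes, which do not start at 0) of the 6 chromatin genes with an unadjusted limma p under 0.05, with deleted samples in red on the left and floxed samples in grey on the right. Small digits are sample numbers, and bars are mean ± SD (n = 3 each). In each panel the groups are apart, and in Hdac9 floxed sample 1, at 6.32, lies far below the other samples.

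Methylation enzymes held the widest range of differences, from −0.50 to 0.49, with a median of −0.06. Kmt2a, the MLL1 histone H3 methyltransferase that maintains Hox gene expression, had 9.48, 9.47 and 9.19 in the deleted samples, against 8.81, 9.09 and 8.79 in the floxed samples. All deleted samples lay above all floxed samples, at 140% of the floxed level, a difference of 0.49 ± 0.13 (SE, limma adjusted p = 0.145). A second Kmt2a probe set had 8.85, 8.76 and 8.78 in deleted samples, against 8.11, 8.34 and 8.30 in floxed samples. There the difference was 0.55, and its limma adjusted p of 0.080 over all probe sets was the smallest of the 111 probe sets of the chromatin genes, of which 0 passed. At the first probe set the difference was 0.52 within males and 0.53 within females. Its relatives Kmt2c and Kmt2d, which methylate histone H3 at enhancers, differed by 0.11 and 0.10, and all 4 Kmt2c probe sets stood higher. The Kmt2a promoter is shown because the p of Kmt2a was also among the smallest of the set. It lies at chr9:44881240-44881539 of GRCm38.p6 on the minus strand and holds no TGACG core.
Kmt2a: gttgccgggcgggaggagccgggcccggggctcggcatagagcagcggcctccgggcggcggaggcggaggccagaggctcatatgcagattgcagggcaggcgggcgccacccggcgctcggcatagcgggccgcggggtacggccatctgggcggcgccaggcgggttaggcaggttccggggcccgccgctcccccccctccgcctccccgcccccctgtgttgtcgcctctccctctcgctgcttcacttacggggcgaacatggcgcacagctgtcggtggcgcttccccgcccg

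Histone demethylases differed in either direction, with the largest differences negative. Kdm2b, which brings a Polycomb complex to CpG islands, had 8.43, 8.41 and 8.19 in the deleted samples, against 8.58, 8.59 and 8.86 in the floxed samples. The groups were apart, with a difference of −0.33 ± 0.12 (SE, limma adjusted p = 0.259), while its other probe set differed by −0.13 with overlapping groups. Kdm6b, named here after its values were seen, removes the methyl mark that Polycomb places. It had 9.38, 9.63 and 9.0 in deleted samples, against 10.00, 9.42 and 10.10 in floxed samples. The groups overlapped because floxed sample 2 lay below deleted sample 2, and the difference was −0.50 ± 0.22 (SE, adjusted p = 0.353). All 3 Kdm6b probe sets were lower, and at a dimmer one, with 7.01, 6.96 and 6.63 in deleted samples against 7.41, 7.78 and 7.36 in floxed samples, they did not overlap (−0.65, limma adjusted p = 0.138 over all probe sets). The Kdm6b difference was −0.81 within males and −0.12 within females. Kdm1a, the LSD1 demethylase of the CoREST complex, differed by 0.15 and Kdm4a by −0.06.

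None of the genes of Polycomb repressive complex PRC2 passed. Ezh2, its main methyltransferase in dividing cells, had 6.94, 6.86 and 7.12 in deleted samples, against 7.0, 6.84 and 7.82 in floxed samples. Floxed sample 3 stood apart from the other 5, and the difference of −0.25 ± 0.24 (SE, adjusted p = 0.697) was 0.05 without it. Ezh1, which predominates in resting cells, had 7.78, 7.75 and 7.77 in deleted samples, against 7.63, 7.74 and 7.61 in floxed samples, a difference of 0.11 without overlap, while its second-brightest probe set differed by −0.10. Suz12, a core subunit, differed by −0.19, and each of its 6 probe sets gave a negative difference, between −0.35 and −0.13, with overlapping groups. The subunit Eed differed by −0.08. Setd2, which methylates histone H3 in transcribed genes, differed by 0.06.

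Of the DNA methylation genes, the maintenance enzyme Dnmt1 had 7.70, 7.89 and 7.91 in deleted samples, against 7.91, 8.11 and 8.15 in floxed samples, a difference of −0.22 (adjusted p = 0.391). Each of its 3 probe sets gave a negative difference. The de novo enzyme Dnmt3b had 5.61, 5.57 and 5.76 in deleted samples, against 5.86, 5.95 and 5.79 in floxed samples, and its groups did not overlap at either probe set (−0.22 and −0.44). Its relative Dnmt3a differed by 0.09, with 4 of 5 probe sets higher. Tet2, a cytosine dioxygenase, had 7.39, 7.72 and 6.78 in deleted samples, against 7.97, 7.22 and 8.12 in floxed samples. As in Kdm6b, floxed sample 2 fell among the deleted samples and deleted sample 3 was the lowest, and the difference was −0.48 ± 0.30 (SE, adjusted p = 0.514). The second Tet2 probe set had 6.73, 6.70 and 6.78 in deleted samples, against 7.30, 6.79 and 7.43 in floxed samples, a difference of −0.44 without overlap. Tet3 differed by 0.04, with an interval from −0.16 to 0.24.

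The 5 SWI/SNF remodelling genes had a median difference of −0.03, and at the probe sets taken all of their intervals lay within a 1.5-fold change. Arid1b, a large DNA-binding subunit, had 9.41, 9.46 and 9.41 in deleted samples, against 9.69, 9.70 and 9.49 in floxed samples, a difference of −0.20 without overlap (adjusted p = 0.369). Its paralog Arid1a, whose probe set was the brightest of the class with a mean of 9.81, differed by −0.01. The core subunit Smarcb1 differed by −0.16, and the ATPases Smarca4 and Smarca2 by −0.03 and 0.01. A dim Smarcb1 probe set, with a mean of 4.07, stood 0.88 higher in the deleted group, against the direction of its other 2 probe sets.

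Paralogs were set side by side as the within-sample log2 ratio of their probe sets, in 9 pairs. The ratio of Hdac1 to Hdac2 was 1.06, 1.05 and 0.89 in deleted samples, against 1.23, 1.19 and 1.52 in floxed samples, a change of −0.31. The ratio of Kat6a to Kat6b was 1.57, 1.49 and 1.64 in deleted samples, against 1.81, 2.09 and 1.80 in floxed samples, a change of −0.33. In both pairs the groups did not overlap. The exact two-sided permutation p was 0.1 in each, the smallest that 3 against 3 samples allow, and 0.45 after adjustment over the 9 pairs. The test could thus call no pair at 0.05, whatever the ratios. How often the ratios of other gene pairs separate was not counted. The other pairs had an exact permutation p of 0.2 or more, among them Dnmt3a to Dnmt3b (change 0.31), Ezh1 to Ezh2 (0.35), Tet2 to Tet3 (−0.52) and Arid1a to Arid1b (0.19). The ratios of Kat2a to Kat2b, Smarca2 to Smarca4 and Kmt2c to Kmt2d changed by 0.02, 0.05 and 0.01.

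Brighter probe sets of the same gene, read on the same arrays, mostly had differences of the same sign. Of the 30 chromatin genes with at least 2 probe sets above the median of all probe sets, 24 had the same sign at each of these, and 6 did not, namely Brd2, Dnmt3a, Ezh1, Hdac4, Kat2b and Ncoa2. The main probe sets of these 6 differed by between −0.21 and 0.11. With dimmer probe sets included, Hdac2, Hdac11, Kat6a, Kat6b, Kdm4a, Ncoa1 and Smarcb1 had both signs as well. The matching share over all genes was not counted.

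The samples themselves were not alike within a group. Deleted sample 3 was the lowest of the 6 samples in 16 of the 50 chromatin genes, 32%, whereas it was the lowest in 14.2% of all genes. It was the highest in 4 of them, 8%, against 26.4% of all genes. Those where it was lowest include Kdm6b, Tet2, Hdac4, Suz12 and Kdm2b. Floxed sample 2 was the highest in 15 of the 50, 30%, against 18.6% of all genes, and floxed sample 3 in 14 of the 50, 28%, against 13.1% of all genes. The mean shift of the methylation enzymes from the floxed mean was −0.04, 0.01 and −0.17 in deleted samples 1, 2 and 3, and −0.03, −0.04 and 0.07 in floxed samples 1, 2 and 3. That of the acetyltransferases was −0.04, −0.06 and −0.10 in the deleted samples, and −0.01, 0.02 and −0.01 in the floxed samples. The plasma cell markers were at 0.77, 0.93 and 1.95 from the floxed mean in deleted samples 1, 2 and 3, against 0.01, −0.07 and 0.06 in the floxed samples. The macrophage markers were at 1.28, 0.60 and 1.68 in the deleted samples, against 0.73, −0.71 and −0.02 in the floxed samples. The erythroid markers were at −0.02, −0.04 and 1.29 in the deleted samples, against 0.17, −0.03 and −0.15 in the floxed samples, and all 5 measured ones averaged below the median of all probe sets. The neutrophil markers were at −0.86, 0.07 and 1.19 in the deleted samples, against −0.12, −0.81 and 0.93 in the floxed samples. Deleted sample 3 was thus the highest of the 6 in these 4 lists, but not in the other marker lists. T cell markers were highest in deleted sample 2, at 0.31, against 0.10 in deleted sample 3. NK and dendritic cell markers were highest in floxed sample 3, at 0.45 and 0.61, against 0.14 and 0.25 in deleted sample 3. B cell markers were lowest in deleted sample 2, at −0.41, against −0.30 in deleted sample 3. The part of these cells in the lower values of deleted sample 3 was not tested. Without deleted sample 3, the difference was −0.22 in Tet2 and 0.58 in Kmt2a. The Tet2 difference was −0.30 without floxed sample 3 and −0.75 without floxed sample 2.

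**Figure D4:**
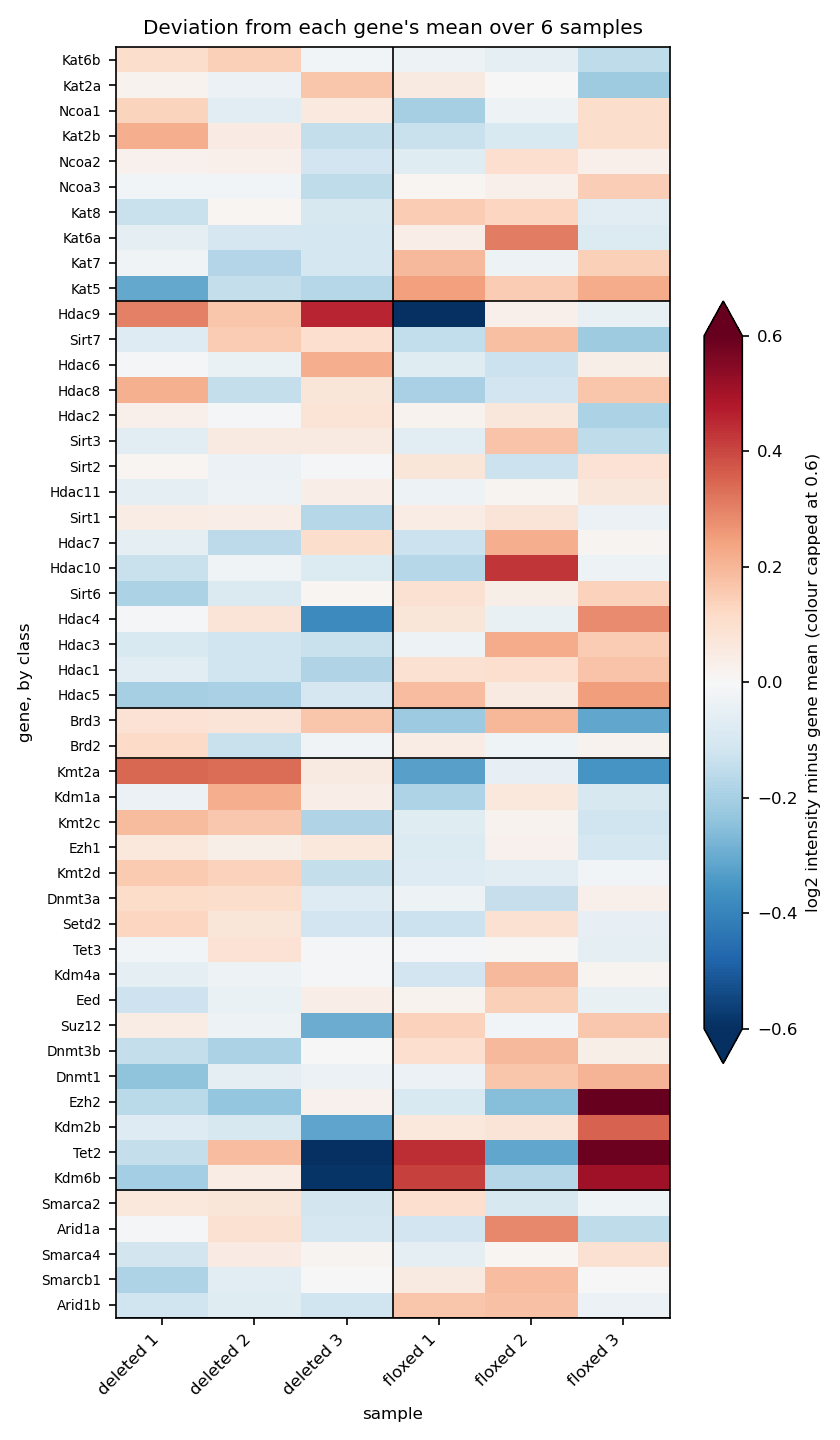
Colour gives the log2 intensity of each of the 50 chromatin genes (rows, grouped by class) in each sample (columns, deleted then floxed) minus that gene's mean over the 6 samples. Blue cells are common in deleted sample 3, the lowest sample in 16 genes, with Kdm6b and Tet2 the deepest.

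Other genes of the same machinery were examined as a list of 177 genes chosen by function, of which 170 were measured. Limma called 1 of them higher and 0 lower, beside 0.544% and 0.236% of all genes, and 23 of the 170 had an unadjusted p under 0.05, 13.5%, beside 14.8%. The groups did not overlap in 46 of the 170, 27.1%, beside 21.2% of all genes. The gene that rose was Bmi1, a subunit of Polycomb repressive complex PRC1 that supports stem cell self-renewal. It had 10.04, 9.99 and 10.02 in deleted samples, against 9.13, 9.23 and 9.45 in floxed samples, a rise of 0.75 ± 0.11 (SE, n = 3 each), or 1.68-fold, with a limma adjusted p of 0.034. Its second probe set was 0.53 higher, also without overlap. The call was lost without each of deleted samples 1, 2 and 3 and floxed samples 1 and 2 (adjusted p from 0.067 to 0.144), with sex as a term (0.078), with the replicate number as a block (0.058) and in an ordinary linear model (0.199).

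Jarid2, a cofactor of the Polycomb methyltransferase, came next, with 8.29, 8.36 and 8.17 in deleted samples, against 8.81, 8.81 and 8.81 in floxed samples. The difference was −0.54 ± 0.09 (SE, limma adjusted p = 0.0504), and all 3 Jarid2 probe sets had separate groups. Trim24, a bromodomain corepressor, had 7.24, 7.25 and 7.15 in deleted samples, against 7.89, 7.72 and 7.66 in floxed samples (−0.55, adjusted p = 0.060). Mef2c, a transcription factor that recruits class IIa deacetylases and acts in B cells, had 10.92, 10.84 and 10.75 in deleted samples, against 11.27, 11.29 and 11.37 in floxed samples (−0.47, adjusted p = 0.068), and all 5 of its probe sets had separate groups. Jarid2 passed under 8 of the alternatives tried, Mef2c under 2 and Trim24 under 2, each with the same sign.

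**Figure D5:**
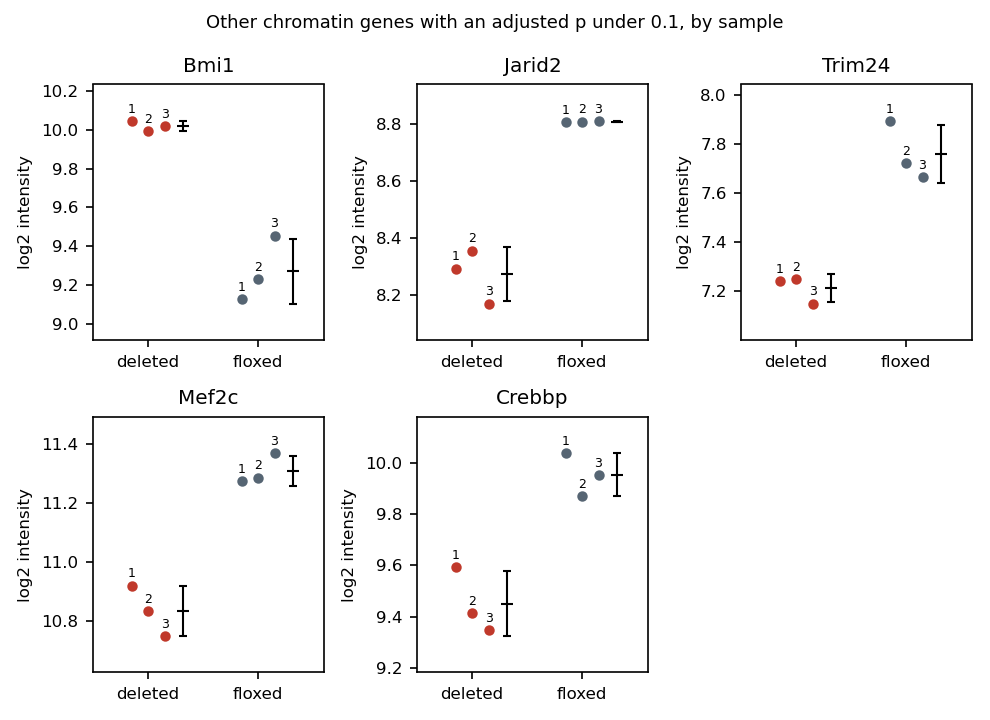
Log2 intensity (vertical axes, which do not start at 0) of the 5 other chromatin genes with a limma adjusted p under 0.1, with deleted samples in red on the left and floxed samples in grey on the right. Digits are sample numbers and bars are mean ± SD (n = 3 each). Bmi1 is higher in the deleted samples, and Jarid2, Trim24, Mef2c and Crebbp are lower.

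By list, the share of genes with an unadjusted p under 0.05 ran from 9.52% to 20%, around the 14.8% of all genes. Acetyltransferase complexes had 3 of 30 such genes, Crebbp itself included, with the reader Brpf3 (0.46) and the adaptor Tada2a (0.31) after it. Deacetylase complexes had 5 of 25, with the NuRD helicase Chd3 at −0.79 and the NCoR subunit Tbl1xr1 at −0.30 after Mef2c. With its most variable probe set Tbl1xr1 differed by −1.07 and passed (limma adjusted p = 0.031). Among bromodomain readers these were 2 of 21, Trim24 and Atad2b (−0.26), and Brd1 (0.17) came after them. Methylation enzymes and partners had 9 of 64, with the histone H4 methyltransferase Kmt5a at 0.38 after Bmi1 and Jarid2. Remodellers had 4 of 30, namely the SWI/SNF subunits Bcl7a (0.44), Phf10 (0.27) and Bcl7b and the helicase Chd9 (0.33), with Bcl7b at −0.31. Apart from Bmi1, no gene of these lists passed the limma test over all genes with the brightest probe set. Several of these values depended on the probe set. With the most variable probe set Chd9 differed by −0.018, Brd1 by −0.12 and Atad2b by −0.64, and with the mean of probe sets Phf10 differed by 0.014, Bcl7a by 0.11, Kmt5a by 0.16 and Chd9 by 0.030.

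The promoter windows of the chromatin genes were searched for response elements on both strands. RefSeq windows matched 44 of the 51 genes, with 65 windows in all. The core TGACG, which the full element TGACGTCA contains, was present in 19 of the 65 windows, 29.2%, beside 20.8% of all 32851 windows. Windows of the same gene were counted separately. By gene, 16 of the 44 had the core, beside 6228 of 27025 genes in all. All windows were not matched to these in base composition, and the reason for the difference in share was not tested. The core occurred up to 2 times in a Kat5 window, 2 times in that of Hdac5 and 3 times in that of Hdac4. It was absent from the windows of Kmt2a and Hdac9. The full element was in 0 of the 65 windows and in 1.79% of all windows, and the heat shock element core GAANNTTC was in 3 of the 65, 4.62%, beside 7.86% of all windows. These matches describe the letters in these windows and not binding.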

How the data were processed

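Expression was measured on 6 Affymetrix arrays, 1 per mouse. The deposited table holds an intensity per probe set and array, made with RMA (background correction, quantile normalization, probe summary) per the submitters' processing notes, with the version not given in the sources used here. The deposited intensities run from 2.96 to 17022, so they were read as linear and converted to log2 without further normalization. Of 45101 probe sets 34958 had 1 gene symbol in the platform annotation; the 64 control probe sets were left out, and each of 18193 genes was represented by its probe set with the highest mean. No filter on dim genes was applied.

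The test was limma's (version 3.58.1, under R 4.3.3), with lmFit and eBayes, two-sided and without covariates, with Benjamini-Hochberg adjustment over all genes. The procedure was tested on simulated data. Arrays have no read depth, and their number limits the precision. The series' design text gives 3 mice per strain, so replicates are separate animals. The chromatin genes, their classes and the other gene lists were chosen with earlier results of these data known. Genes were named by a rule: all with an unadjusted p under 0.05, the 3 smallest p and the brightest probe set of each class, paralog pairs, genes with opposed probe sets, and Crebbp, Ep300 and Bcl2. All other genes of the set that the text names, and Bcl7b, were named after their values were seen. Promoter sequences are from RefSeq, GRCm38.p6. Alternatives covered normalization, offset, dim-gene filters, choice of probe set, limma settings, thresholds, replicate block, sex (from Xist and Y-linked genes) and omission of each sample; differences within each sex and a test of genotype by sex were added after seeing the data. Figures used matplotlib 3.10.9 in Python 3.11.15.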

Additional observations from a re-analysis of the deposited data

How the results depend on the processing

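The count of chromatin genes called stayed at 0 in 19 refits with other normalizations, filters, probe sets, limma settings or covariates or without a sample. It was also 0 with every probe set tested singly. In the 19 refits 4 to 12 of the 50 had an unadjusted p under 0.05. There were 12 with an offset of 16, beside 15.8% of all genes, and 4 with the replicate block, beside 14% of all genes. In the main fit the count was 1, Kat5, at an adjusted p under 0.1. At an unadjusted p under 0.05 it was 6, beside 14.8% of all genes. Of the 50 genes 30 kept their sign in every refit and 20 did not.

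The number of all genes called was 142, and 0 to 226 without 1 sample: 0 without floxed sample 1 (limma, 1990 at an unadjusted p under 0.05), 16, 45 and 62 without deleted samples 1, 2 and 3, and 226 without floxed sample 3. The count was 37 with sex as a term, 50 among genes above the upper quartile of probe sets (fewer genes tested), 291 with array weights, 0 with an ordinary linear model (2299 at an unadjusted p under 0.05), 449 and 17 at adjusted p under 0.1 and 0.01, and 2693 at an unadjusted p under 0.05. With an offset of 16 the split was 63 higher and 46 lower, against 99 and 43. It was 23 and 27 above the upper quartile and 75 and 65 without floxed sample 2.

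The number of other chromatin genes called was 1, and 0 to 1 without 1 sample. The count was 2 after quantile normalization again, with either filter on dim genes, with the most variable probe set and with robust eBayes. It was 3 with the offset, an intensity trend or array weights, and 4 with the mean of probe sets. With an ordinary linear model, the replicate block or sex as a term it was 0. In those fits 28, 19 and 21 of the 170 had an unadjusted p under 0.05, beside 12.6%, 14% and 14% of all genes. The count was 5 and 0 at adjusted p under 0.1 and 0.01, and 23 at an unadjusted p under 0.05, beside 14.8% of all genes. Apart from fewer genes or samples, the cause was not tested.

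Class medians moved beyond the spread between replicates as follows. With the most variable probe set they were 0.013 for acetyltransferases, −0.11 for deacetylases, 0.21 for bromodomain readers and 0.040 for methylation enzymes. The acetyltransferase median was −0.0080 with the mean of probe sets and −0.052 with sex as a term. Without 1 sample the medians ran from −0.11 to −0.032 for acetyltransferases, −0.091 to 0.023 for methylation enzymes and −0.094 to −0.013 for remodellers. Those of deacetylases (−0.059 to −0.0079) and bromodomain readers (0.048 to 0.165) stayed within that spread without any 1 sample.

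Deviations of same-numbered samples correlated weakly, at 0.033, 0.104 and 0.0059 over all genes. The same-numbered floxed sample was the best match of deleted samples 1 and 2. Deleted sample 3 instead correlated best with floxed sample 1 (0.079). Each of these best matches was also of the same sex, floxed sample 1 being the only floxed male. The part of sex in these correlations was not tested. With the replicate number as a block 126 genes and 0 of the 50 chromatin genes were called. A test of genotype by sex rested on a lone mouse among floxed males and a lone mouse among deleted females. It cannot show whether the differences vary with sex, so its counts are left out.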
